A study of Mus musculus with 21 samples.

Results

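Four-cutter chromosome conformation capture with sequencing (4C-seq) was used to measure how often the olfactory receptor flank above HS-62 of the mouse beta-globin locus met 4 viewpoints inside that locus. The flank was taken as the positions from 111064000 to 111197000 on chromosome 7 (mm9), chosen by coordinate alone. It holds 134 positions at steps of 1000 bp in each of 7 libraries, or 938 of the 3007 positions in these profiles and of the 14771 in the 21 libraries of the series. The libraries came from C57BL/6 fetal liver (4 libraries) and fetal brain (3 libraries) at 14.5 days post coitum, the organs of 10 to 12 embryos going into each cell suspension. HS-2, 3' HS-1 and the Hbb-b1 promoter were viewpoints in both tissues, cut with DpnII and then Csp6I. HS-62 was a viewpoint in liver alone, cut with NlaIII and then DpnII. Each combination of viewpoint and tissue had 1 library, so no difference has a replicate check and the report holds no tests.

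In 4C-seq, cross-linked chromatin is cut and ligated, and the fragments joined to a chosen viewpoint are amplified by inverse PCR and sequenced, so the signal at a position reflects how often it lay near the viewpoint. Fetal liver is the erythroid organ of the fetus and transcribes the adult beta-globin genes, while fetal brain does not. HS-2 is an enhancer element of the locus control region. 3' HS-1 and HS-62 are hypersensitive sites at the outer ends of the locus, known to bind CTCF and to take part in the looped structure called the active chromatin hub in erythroid cells. The globin locus sits inside a large array of olfactory receptor genes, which are expressed in olfactory neurons and are silent in erythroid cells and most of the brain. The flank was thus taken, without measuring its activity, as a stretch of chromatin beside the globin domain that is inactive in both tissues. Both are mixed tissues, so a contact made in fewer cells and one made less often per cell cannot be told apart.

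In the RefSeq gene table, the 10 genes after Hbb-y on the side away from Hbb-b1 are Olfr66, Dnajc19-ps, Olfr64, Olfr65, Olfr631, Olfr632, Olfr633, Olfr634-ps1, Gm4886 and Olfr635. All 7 of the protein-coding ones are olfactory receptor genes, and the other 3 are pseudogenes. That table uses GRCm38, so these genes were placed by order only, and which of them lie between the mm9 bounds of the flank was not determined. Promoter sequences (RefSeq, GRCm38.p6, 300 bases around the gene start) were found for 5 of the 10. The 3 farthest from Hbb-y are printed here because a 4C profile can read a stretch only where its enzymes cut, and the capitals mark each GATC (DpnII) and CATG (NlaIII) site. The Olfr65 window is chr7:103906092-103906391, the Olfr631 window chr7:103914812-103915111 and the Olfr635 window chr7:103978926-103979225, all on the plus strand.
Olfr65: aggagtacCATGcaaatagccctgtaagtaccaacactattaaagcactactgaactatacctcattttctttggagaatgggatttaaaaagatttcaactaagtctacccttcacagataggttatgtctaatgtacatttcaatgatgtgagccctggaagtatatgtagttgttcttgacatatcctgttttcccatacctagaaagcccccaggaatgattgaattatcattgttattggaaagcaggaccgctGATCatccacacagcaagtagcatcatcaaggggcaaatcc
Olfr631: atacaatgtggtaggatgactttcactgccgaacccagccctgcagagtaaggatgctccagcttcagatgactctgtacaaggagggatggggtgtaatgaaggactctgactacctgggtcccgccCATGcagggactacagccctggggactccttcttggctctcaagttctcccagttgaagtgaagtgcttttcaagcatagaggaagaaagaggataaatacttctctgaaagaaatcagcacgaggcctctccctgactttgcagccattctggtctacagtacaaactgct
Olfr635: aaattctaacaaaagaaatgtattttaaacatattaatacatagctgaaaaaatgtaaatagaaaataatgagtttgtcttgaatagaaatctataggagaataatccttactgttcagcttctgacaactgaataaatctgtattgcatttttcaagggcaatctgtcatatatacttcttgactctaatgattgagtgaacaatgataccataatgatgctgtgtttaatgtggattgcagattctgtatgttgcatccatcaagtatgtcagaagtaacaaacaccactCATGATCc
All 3 sites searched read the same on both strands. The Olfr65 window holds 1 GATC, 1 CATG and 3 GTAC (Csp6I) sites. The Olfr631 window holds no GATC, 1 CATG and 2 GTAC sites, so DpnII does not cut inside it. In the Olfr635 window the 1 CATG and the 1 GATC share their G, and there is no GTAC. Of the 5 matched promoters 4 hold GATC, 5 hold CATG and 2 hold GTAC, against 48.0%, 61.1% and 35.8% of the 32851 RefSeq promoter windows of 300 bases. These counts describe the letters of the windows and were not set against the signal, since the builds differ.

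Signal is given here as relative signal, the middle value of the 5 kb smoothing window divided by the mean of the same library beyond 10 kb of its viewpoint, so that 1 is the library's average. Seen from the Hbb-b1 promoter, 87.5 to 220.5 kb away, the flank averaged 0.0903 in liver and 0.319 in brain. Seen from HS-2, at 58 to 191 kb, it averaged 0.0909 in liver and 0.500 in brain. Both viewpoints therefore had less of their liver signal in the flank than of their brain signal. From 3' HS-1 the order was turned, with 0.651 in liver and 0.271 in brain at 121.5 to 254.5 kb. From HS-62, which lies 6 kb below the flank, the liver mean was 0.865 over 129 positions, 5 of the 134 being under 10 kb from it and so not used. With this window and scale the flank was below average from all 4 viewpoints in every library, and lowest from the Hbb-b1 promoter and HS-2 in liver. From HS-62 it averaged 1.00 with the 10 kb window and 1.05 with the 20 kb window. Scaled to positions outside the interval from 3' HS-1 to HS-62, it averaged 1.40 from HS-62.

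The same picture holds for shares of signal. The flank made up 35.6% of the positions of the Hbb-b1 promoter and 3' HS-1 profiles and 35.7% of those of HS-2. It took 3.22% of the liver and 11.4% of the brain signal of the Hbb-b1 promoter. For HS-2 the shares were 3.25% in liver and 17.8% in brain. For 3' HS-1 they were 23.2% in liver and 9.67% in brain, and HS-62 gave 19.4% of its liver signal to the flank from 22.4% of its positions. The farthest of the 3 viewpoints that were profiled in both tissues thus had the largest liver share among them. Positions above the library average were rare in the flank, at 1 of 134 for the Hbb-b1 promoter and 0 of 134 for HS-2 in liver, against 12% and 16.5% over the whole profiles. In brain there were 0 of 134 from the Hbb-b1 promoter, 7 of 134 from HS-2 and 0 of 134 from 3' HS-1, where the profiles as a whole had 28.2%, 22.4% and 30.6%. From 3' HS-1 in liver 18 of 134 exceeded the average (23.9% over the profile), and from HS-62 44 of 129 (34.1%).

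**Figure D1:**
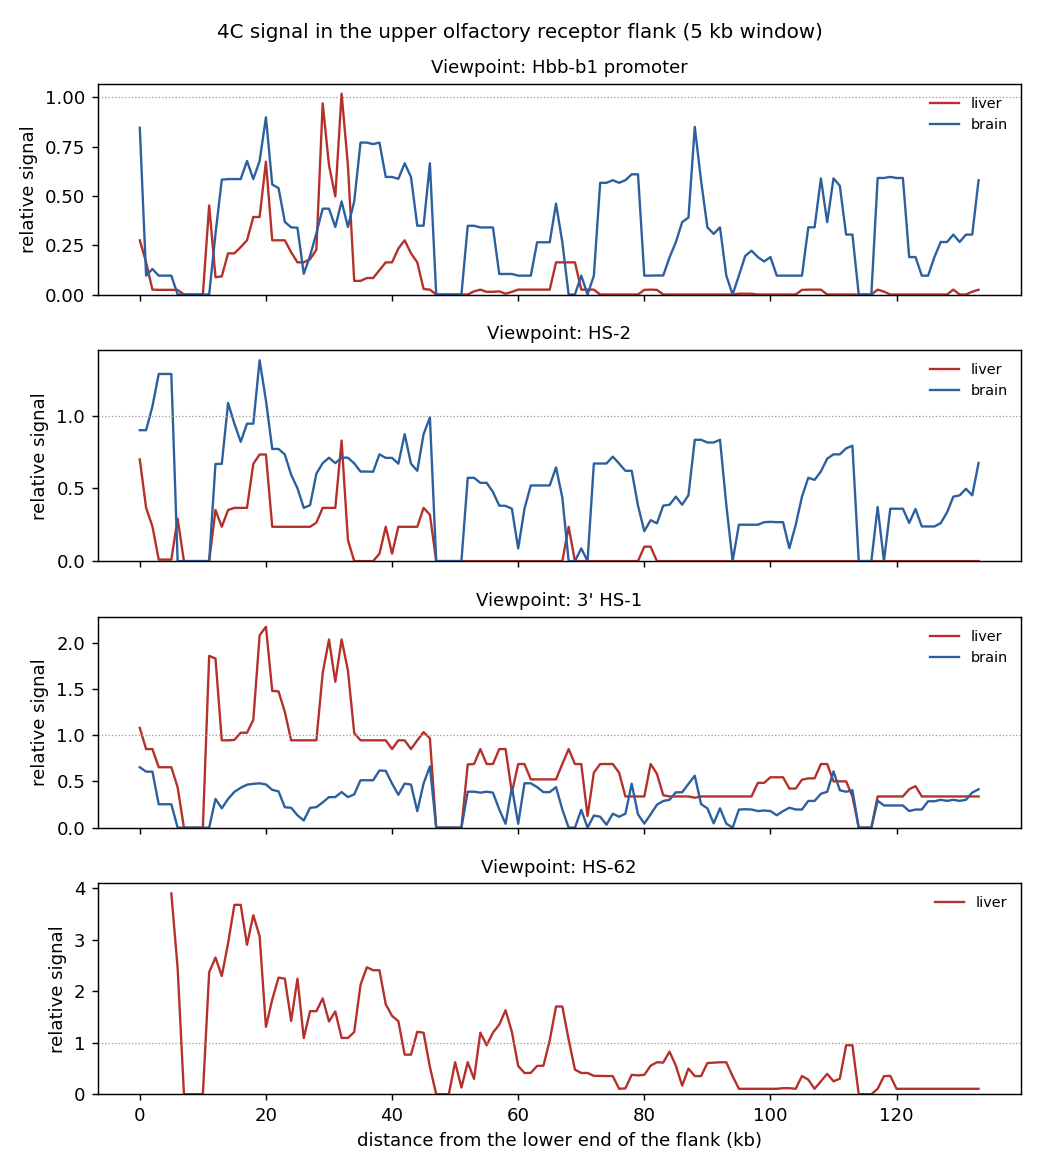
Relative signal (1 is the library mean beyond 10 kb of the viewpoint, dotted line) at each flank position against the distance from the lower end of the flank, 1 panel per viewpoint with its own vertical scale, liver in red and brain in blue, 1 library per line. From the Hbb-b1 promoter and HS-2 the liver line lies near 0 beyond about 46 kb, while from 3' HS-1 it stays above the brain line over most of the flank.

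Levels fell outward from HS-62, and in liver they fell most from the Hbb-b1 promoter and HS-2. The flank was divided into a near part (111.064 to 111.108 Mb, 45 positions), a middle part (111.109 to 111.153 Mb, 45) and a far part (111.154 to 111.197 Mb, 44). From the Hbb-b1 promoter the liver means were 0.240, 0.0245 and 0.00485, and the near part held 89.1% of the flank's signal. In brain the same viewpoint gave 0.413, 0.270 and 0.273, with 43.4% of the signal in the near part. From HS-2 the liver means were 0.246 and 0.0249, and all 44 positions of the far part were empty, that is under 1e-09 in deposited signal. The brain means from HS-2 were 0.689, 0.419 and 0.388. In the middle value of the window the brain profiles thus levelled off beyond the near part, whereas both liver profiles fell to or near 0 there.

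From 3' HS-1 the liver means were 1.05, 0.510 and 0.384, and the brain means 0.329, 0.249 and 0.236. In liver a single value, 0.338, recurred at 33 of the 134 positions and is also the median of the far part. In the HS-62 library the means were 1.85, 0.611 and 0.228, and a single value of 0.106 recurred at 25 of 129 positions. Positions that share such a value cannot be ranked.

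**Figure D2:**
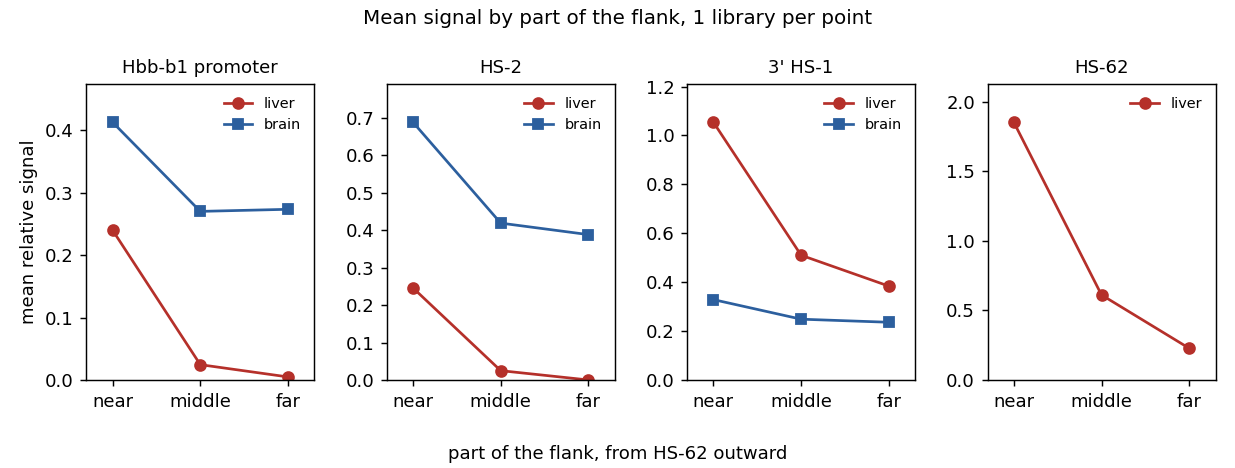
Mean relative signal in the near, middle and far part of the flank for each viewpoint, 1 library per point, each panel with its own vertical scale from 0. For the Hbb-b1 promoter liver (circles) drops from 0.240 to 0.00485, and for 3' HS-1 from 1.05 to 0.384, where it stays above brain (squares) in each part.

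The first positions of the flank were lower than those directly below it. Over the 20 kb directly below it (111.044 to 111.063 Mb), relative signal from the Hbb-b1 promoter averaged 0.284 in liver and 0.695 in brain. Over the first 20 kb of the flank it averaged 0.145 and 0.297. From HS-2 the mean went from 0.660 to 0.253 in liver and from 1.36 to 0.709 in brain. From 3' HS-1 it went from 1.18 to 0.850 in liver and from 0.498 to 0.285 in brain. The first 20 kb were thus lower in both tissues and from all 3 viewpoints, but 4 of those 20 positions were empty in all 7 libraries, and their part in this was not tested. In bins of 10 kb the low stretch was a dip in some libraries. From 3' HS-1 in liver the bins below the flank averaged 1.10 and 1.25, and the first 4 bins of the flank 0.518, 1.18, 1.28 and 1.31. For the Hbb-b1 promoter in liver they averaged 0.234 and 0.335 below the flank and 0.0557, 0.235, 0.341 and 0.342 in it. Both profiles were thus back at the level below the flank from 111.084 Mb on, over those bins. From HS-2 in liver the bins were 0.589 and 0.731 below the flank and 0.163, 0.344, 0.301 and 0.199 in it, and in brain 1.31 and 1.41 below and 0.672, 0.746, 0.650 and 0.677 in it, so from this viewpoint the lower level lasted over these 40 kb.

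Within the near part the liver profiles of the 3 viewpoints cut with DpnII shared their highest positions. At 111.096 Mb, 32 kb into the flank, relative signal in liver was 1.02 from the Hbb-b1 promoter, 0.829 from HS-2 and 2.04 from 3' HS-1. In brain it was 0.472, 0.711 and 0.386, and from HS-62 in liver it was 1.09. Among the positions of its own library's flank this site ranked 1, 1 and 3 in those liver libraries, 40, 31 and 39 in brain and 40 from HS-62. The rank was thus high in liver from the DpnII viewpoints and lower in brain and from HS-62.

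At 111.084 Mb, 20 kb into the flank, liver relative signal was 0.673 from the Hbb-b1 promoter, 0.733 from HS-2 and 2.17 from 3' HS-1. Brain gave 0.899, 1.10 and 0.468, and HS-62 gave 1.31. This site was near the top in both tissues from the Hbb-b1 promoter (rank 3 in liver, 1 in brain) and HS-2 (2, tied, and 5), and for 3' HS-1 it ranked 1 in liver and 21 in brain. Its neighbour at 111.083 Mb was the highest flank position from HS-2 in brain, with 1.38.

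Positions above the distance decay of their own library made up the larger share of the flank from the Hbb-b1 promoter and 3' HS-1 in liver, and none of it from HS-62. Observed over expected (O/E) is the mean signal within 5 kb of a position over the mean of a monotone decay fitted to both sides of the viewpoint, with 10% of the library mean added to both. Where the other side ends short of the flank's distances, the decay rests on the flank alone. Of the positions with O/E above 1 and signal in the top 25% of their library, the highest O/E from the Hbb-b1 promoter in liver was 2.28 at 111.097 Mb, where relative signal was 0.656. HS-2 in liver had 1.59 at 111.109 Mb, where the signal was 0.366, and 1.35 at 111.084 Mb. HS-2 in brain had 1.18 at 111.083 Mb, and 3' HS-1 in liver 1.63 at 111.080 Mb, with a signal of 1.03. All 5 lay in the near part or on its border with the middle part. The brain libraries of the Hbb-b1 promoter and 3' HS-1 and the HS-62 library had no position of this kind. Counts with O/E above 1 were 79 of 134 in liver and 56 of 134 in brain from the Hbb-b1 promoter, against 41% and 55.9% over the whole profiles. From HS-2 they were 36 and 51 of 134 (34.4% and 49.3%), and from 3' HS-1 81 and 64 of 134 (41% and 53.2%). From HS-62 it was 0 of 129, against 46.1%. The 79 of the Hbb-b1 promoter in liver include positions with almost no signal, such as 111.149 Mb, which was empty with an O/E of 1.01. The median O/E of the flank in that library was 1.02.

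The comparison of tissues asks whether the chromatin beside the locus, taken as inactive, meets the globin elements differently where the globin genes are active. It was read against the SD of the log2 ratio over 325 positions between a full and a 1/16 template library of the Hba-a1 promoter in fetal liver, the only technical pair of the series. That SD was 1.05, or 2.07-fold. It describes single positions of another locus and is no error of a mean over the flank, for which these data give none. It is the spread about the pair's own mean, so the shift between its libraries is not in it. Over far stretches that shift was -1.23 to -1.89 in log2, larger than the SD. A position beyond the SD thus need not differ by more than the technical pair did. From the Hbb-b1 promoter the log2 difference of liver minus brain over the whole flank was -1.14, with 10% of the library mean added to each side. At single positions the difference had a median of -1.10 and ran from -3.25 to 2.46. Liver was lower at 109 of 134 positions, a count without a whole-profile share beside it. Liver was lower beyond the SD at 69 of the 134, or 51.5%. Over the whole profile of this viewpoint 65.7% of positions were lower beyond the SD, so the flank did not exceed the background. Liver was higher beyond the SD at 3 positions, against 7.45% over the profile.

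From HS-2 the flank difference was -1.65, with single positions from -3.65 to 1.97. Liver was lower beyond the SD at 95 of 134 positions, or 70.9%, close to the 65.9% of the whole profile. It was higher beyond the SD at 2 positions, against 7.2%. The deficit grew outward from both viewpoints, from -0.59 in the near part to -1.57 and -1.83 in the middle and far parts for the Hbb-b1 promoter. For HS-2 it went from -1.19 to -2.06 and -2.29.

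From 3' HS-1 the flank difference had the opposite sign, 1.02. Liver was above brain by 2.40-fold over the flank and by 3.21-fold over its near part, where the log2 difference was 1.43. Liver was higher beyond the SD at 52 of 134 positions, or 38.8%, against 23.1% over the whole profile. It was lower beyond the SD at 0 positions, against 11.7%. The excess shrank outward, to 0.81 in the middle and 0.53 in the far part. The opposite signs from 3' HS-1 and from the other viewpoints come from 1 library per group, and the difference between them was not tested.

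**Figure D3:**
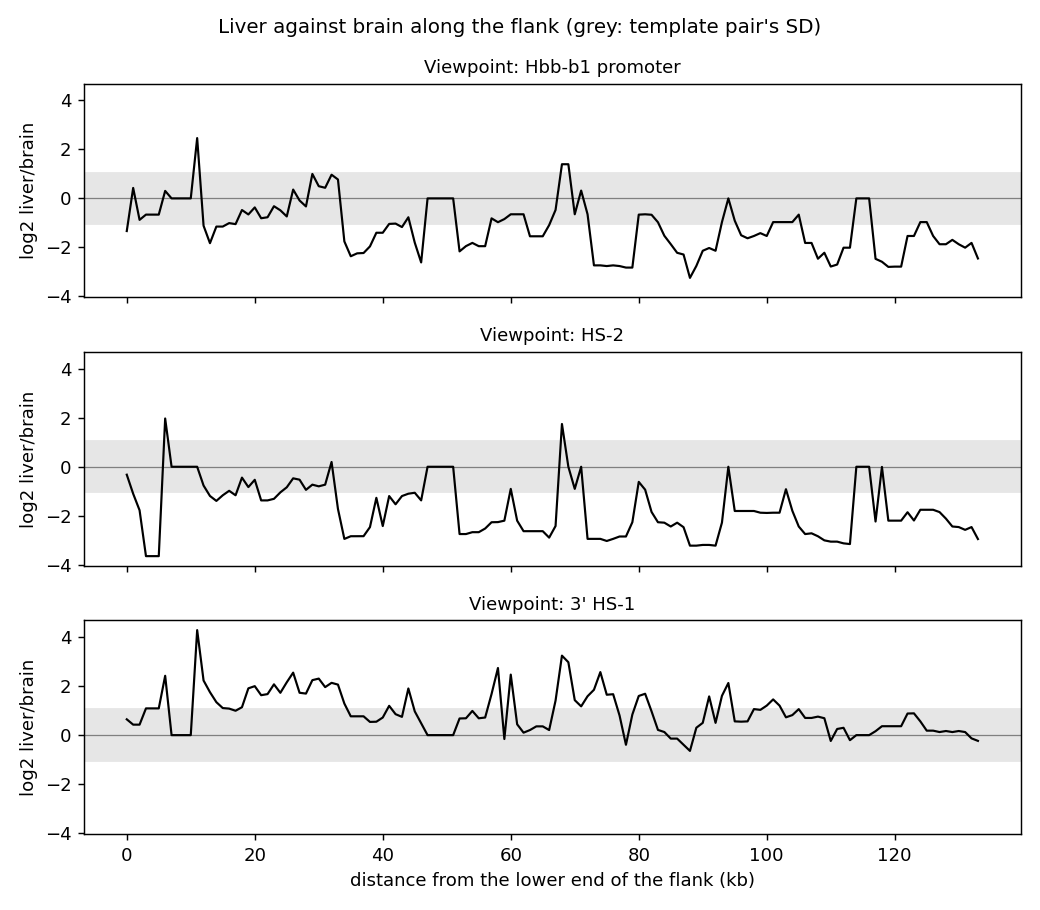
Log2 ratio of liver to brain relative signal (10% of the library mean added) at each flank position against the distance from the lower end of the flank, 1 panel per viewpoint, with the template pair's SD of 1.05 in grey. Most positions lie below 0 from the Hbb-b1 promoter (109 of 134) and HS-2 (115 of 134), and most lie above 0 from 3' HS-1 (112 of 134). No whole-profile share by sign is given beside these counts. Over the whole profiles 65.7% and 65.9% of positions were lower in liver beyond the SD from the first 2 viewpoints. From 3' HS-1 23.1% were higher.

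How far these differences follow the make-up of the libraries cannot be settled here. Over the distances that the flank spans from the Hbb-b1 promoter, the full template library of the Hba-a1 promoter in liver lay below the 1/16 template library by a log2 difference of -1.75 on the HS-26 side and -1.88 on the other side. Over the distances of HS-2 these were -1.23 and -1.89, and over those of 3' HS-1 -1.86 and -1.87. With this addition the technical pair, from 1 tissue, thus differed over such far stretches by more than liver and brain did from the Hbb-b1 promoter. Its values of -1.23 and -1.89 lie on both sides of the -1.65 of HS-2. Without the addition the full template library was lower by 11.7-fold and 39.7-fold over the distances of the Hbb-b1 promoter. Over those of HS-2 it was lower by 3.40-fold and 36.5-fold, so the log2 values understate the technical gap. The full template library and the DpnII liver libraries have titles that end in a longer number than the rest, and the labels do not say whether that stands for pooled runs. Library make-up and tissue cannot be told apart for these differences.

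The differences from the Hbb-b1 promoter and HS-2 also depended on the scale. Divided by the mean of positions outside the interval from 3' HS-1 to HS-62, in place of the mean of all positions beyond 10 kb, the flank was at 1.12 in liver and 0.593 in brain from the Hbb-b1 promoter. The log2 difference then turned to 0.82. From HS-2 the means were 0.989 in liver and 0.941 in brain and the difference was 0.06. From 3' HS-1 they were 0.899 and 0.309, and the difference was 1.29. On that scale liver was not below brain from any of the 3 viewpoints. The positions outside that interval include the flank itself, which draws its level towards 1. With the distance decay of each library taken out, the difference of log2 O/E over the flank was 0.45 from the Hbb-b1 promoter, -0.03 from HS-2 and 0.20 from 3' HS-1. The other side covers only 88 of the 134 flank distances from the Hbb-b1 promoter and 20 from 3' HS-1. At the remaining distances the decay takes its level from the flank itself, which draws O/E towards 1. A small O/E difference thus cannot show that the tissues were alike.

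**Figure D4:**
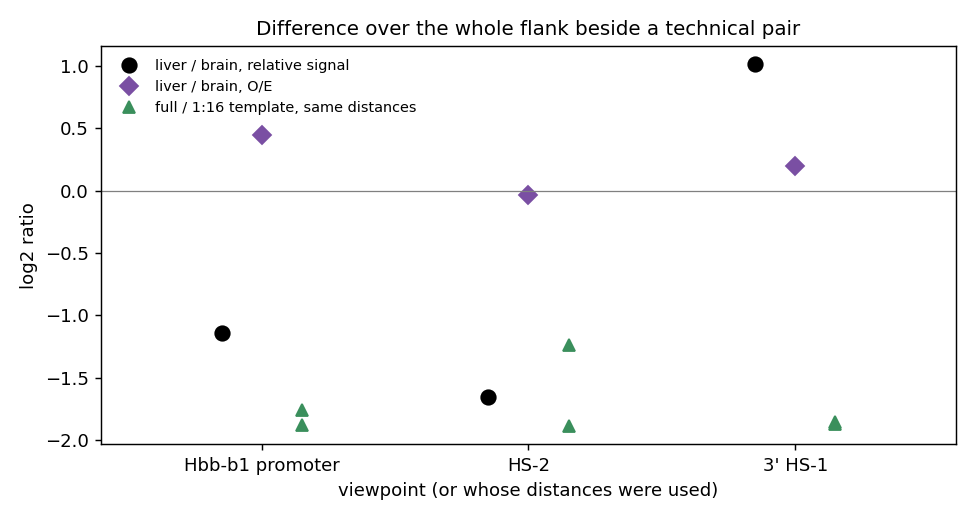
Log2 ratios over the whole flank for each viewpoint: liver over brain in relative signal (circles) and in O/E (diamonds), and full over 1/16 template of the Hba-a1 promoter over the same distances on both of its sides (triangles). In relative signal liver over brain is -1.14, -1.65 and 1.02, while the technical pair lies between -1.23 and -1.89. These values have 10% of the library mean added to each side.

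The positions where brain most exceeded liver lay in the middle and far parts for the Hbb-b1 promoter. At 111.152 Mb the brain relative signal was 0.850 from the Hbb-b1 promoter, 0.834 from HS-2 and 0.562 from 3' HS-1. In liver this position was empty from the Hbb-b1 promoter and HS-2, and reached 0.324 from 3' HS-1 and 0.352 from HS-62. The log2 differences were -3.25, -3.22 and -0.64. It was among the largest brain excesses from all 3 viewpoints. From HS-2 the largest brain excess was at 111.067 Mb, where liver had 0.0103 and brain 1.29, for a log2 difference of -3.65. From the Hbb-b1 promoter the next largest was at 111.183 Mb, where liver had 3.38e-05 and brain 0.596. For 3' HS-1 the next was at 111.174 Mb, where 0.501 in liver and 0.609 in brain gave a log2 difference of only -0.24.

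The positions where liver most exceeded brain all fell on gaps of the brain profiles. By the rule of up to 2 per viewpoint, 6 such entries at 3 sites were named, and all 6 were empty in all 3 brain libraries. At 111.132 Mb liver relative signal was 0.163 from the Hbb-b1 promoter, 0.236 from HS-2, 0.850 from 3' HS-1 and 1.06 from HS-62. At 111.075 Mb it was 0.452 from the Hbb-b1 promoter, 1.86 from 3' HS-1 and 2.37 from HS-62, and the HS-2 liver library was empty. At 111.070 Mb it was 0.0236 from the Hbb-b1 promoter, 0.292 from HS-2, 0.437 from 3' HS-1 and 2.45 from HS-62. The largest liver excess, a log2 difference of 4.29 from 3' HS-1 at 111.075 Mb, is thus set by an empty brain value and the added 10%.

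Gaps recurred at the same flank positions across libraries. All 3 brain libraries were empty at the same 18 of 134 positions, and no brain library was empty at any other. Of these 18, 10 were empty in all 7 libraries, including HS-62 with its other enzyme pair, in 3 runs at 111.071 to 111.074, 111.111 to 111.113 and 111.178 to 111.180 Mb. Below the flank, among 185 positions more than 10 kb from every viewpoint, 0 were empty in all 7 libraries and 4 in all 3 brain libraries. Such shared gaps were thus more frequent in the flank than below it, and their cause was not tested. Leaving out the 10 shared positions gave differences of -1.17 for the Hbb-b1 promoter, -1.69 for HS-2 and 1.03 for 3' HS-1.

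The liver libraries of the Hbb-b1 promoter and HS-2 had many further gaps. The Hbb-b1 promoter was empty at 52 of 134 positions in liver (38.8%, against 23.9% of its whole profile) and at 18 in brain (13.4% against 6.12%). HS-2 was empty at 93 in liver (69.4% against 51.5%) and at 18 in brain (13.4% against 6.93%). Every flank position that was empty in the Hbb-b1 promoter liver library was also empty in the HS-2 liver library, and 41 more were empty in HS-2 alone. This overlap was not counted outside the flank, and HS-2 in liver was empty at most flank positions. Whether it is particular to the flank was thus not determined. From 3' HS-1 12 positions were empty in liver (8.96% against 3.99%) and 18 in brain (13.4% against 6.65%), and from HS-62 10 of 129 (7.75% against 3.48%). The gaps of HS-2 in liver included an unbroken run from 111.146 to 111.197 Mb.

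These liver gaps are empty in the middle value of the window but mostly not in its higher value. Of the 52 empty positions of the Hbb-b1 promoter in liver, 40 had signal in the higher column of the same window, and of the 93 of HS-2, 75 did. Entirely empty windows numbered 12 and 18, against 18 in each brain library, where no empty middle value had a filled higher value. With the higher column divided by its own mean beyond 10 kb, the flank averaged 0.163 in liver and 0.356 in brain from the Hbb-b1 promoter, a log2 difference of -0.79. From HS-2 it averaged 0.239 and 0.525, a log2 difference of -0.88. An empty middle value in these 2 libraries thus does not mean a window without signal, and as read numbers are unknown no upper limit can be set on it.

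The flank was also set against the other side of the same viewpoint at equal distances, which gives a size but, with 1 library each, no error. Log2 differences between sides have 10% of the library mean added to both. From HS-2 the other side lies at 110.815 to 110.948 Mb, mostly below 3' HS-1, and all 134 distances are covered. The means were 0.0909 in the flank and 0.131 on the other side in liver, and 0.500 and 0.565 in brain. The HS-2 liver direction turned with the window, from a log2 difference of -0.27 to 0.03 with the 10 kb window and 0.21 with the 20 kb window. From the Hbb-b1 promoter 88 distances are covered, with the other side at 110.802 to 110.889 Mb. The flank averaged 0.135 there and the other side 0.0279 in liver (log2 difference 0.88), while brain gave 0.333 and 0.475 (-0.41). From 3' HS-1 only 20 distances are covered, at 0.850 against 0.516 in liver and 0.285 against 0.487 in brain. In liver the flank was thus the higher side from the Hbb-b1 promoter and 3' HS-1, and in brain it was the lower side from all 3. With the 20 kb window the brain log2 differences shrank to -0.08 from the Hbb-b1 promoter, -0.05 from HS-2 and -0.06 from 3' HS-1. In the 5 kb window 14, 18 and 6 of these brain flank positions were empty, against 2, 4 and 1 on the other side. In liver 22, 93 and 4 flank positions were empty from the same viewpoints, against 36, 84 and 0 on the other side. The part of these gaps in the differences of either tissue was not tested.

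With 10% of the library mean added, the largest log2 difference between sides was that of HS-62. Its other side at 110.919 to 111.047 Mb holds the globin genes and the control region. Over these distances the flank averaged 0.865 and the globin side 2.57, a log2 difference of -1.47. The globin side was higher at 117 of 129 distances. Without the addition the sides differed by 2.97-fold from HS-62. That is less than the 4.84-fold from the Hbb-b1 promoter in liver, where the flank was the higher side. The O/E of the flank from HS-62 was 0.531 (log2 -0.91). With the decay fitted on the flank's own side it was -0.02, as such a decay takes its level from the flank itself. No brain library of HS-62 was analysed here, so this difference between its sides has no tissue comparison.

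**Figure D5:**
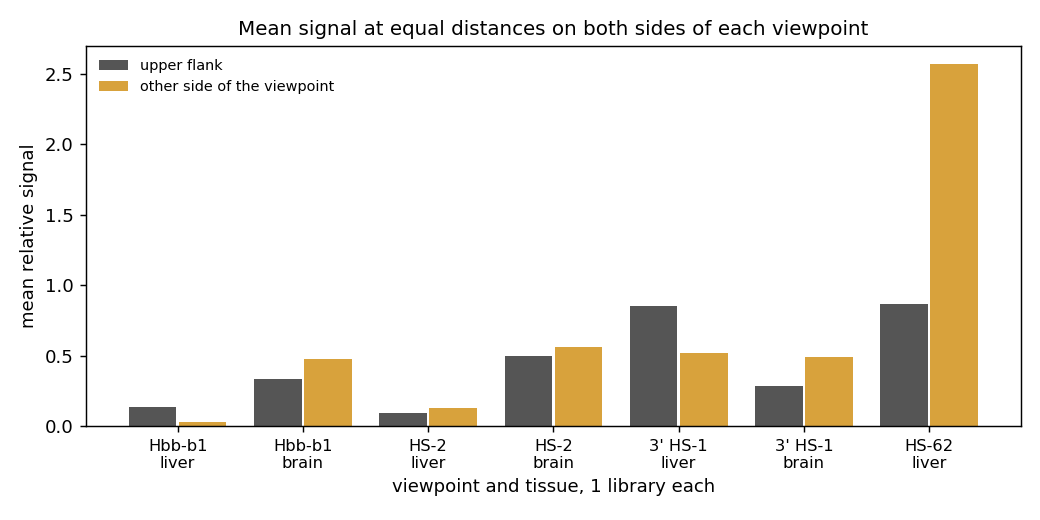
Mean relative signal in the upper flank (grey) and at the same distances on the other side of the viewpoint (yellow), 1 library per pair of bars, over 88 distances for the Hbb-b1 promoter, 134 for HS-2, 20 for 3' HS-1 and 129 for HS-62. The largest gap in bar height is from HS-62, at 0.865 against 2.57.

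Flank profiles were more alike within liver than between tissues of 1 viewpoint. Over 26 or 27 bins of 5 kb, Pearson's r of log2 relative signal ran from 0.72 to 0.89 over the 6 pairs of liver libraries and from 0.63 to 0.64 over the 3 pairs of brain libraries. For the 9 pairs that differ in both viewpoint and tissue it ran from 0.20 to 0.65, the highest, HS-2 in brain with 3' HS-1 in liver, being above all 3 brain pairs. For liver against brain from the same viewpoint it was 0.42 from the Hbb-b1 promoter, 0.59 from HS-2 and 0.45 from 3' HS-1. Spearman's rho was 0.69 to 0.85 within liver, 0.53 to 0.72 within brain, 0.19 to 0.56 where both differed, and 0.25, 0.49 and 0.34 for the same viewpoints. All viewpoints lie on the same side of the flank, so the fall with distance and the shared gaps enter every one of these values. The bins lie along 1 chromosome and are not replicates, so the values are descriptions.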

How the data were processed

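4C-seq was measured in 21 mouse libraries, of which the 7 of the beta-globin locus and 2 liver libraries of the Hba-a1 promoter (chromosome 11), with full and with 1/16 template, were used. The deposited files hold a signal that the authors had normalized and smoothed over 48 windows of 2 to 49 kb, per the file names and values. Each window has 3 columns (middle, higher, lower), an order that held at 100% of positions. The files have no header. Coordinates are mm9, per the submitters' processing notes. The labels name no aligner or filter and no read numbers, so depth is unknown and no counting interval is given.

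Each viewpoint was placed at its highest 5 kb signal (median over its libraries). Positions within 10 kb of it were left out, and signal was divided by the mean of the rest. O/E used a monotone decay with a pseudocount of 10% of the library mean. Positions of the template pair were matched within 500 bp. No test fits 1 library per group. The template pair's SD, which leaves out the shift between its libraries, was the threshold for calling single positions. Named positions were up to 3 per library with the highest O/E (signal in the top 25%, O/E above 1) and up to 2 differences per direction and viewpoint pair, at least 20 kb apart. Requiring an O/E above both neighbours as well, which the rule does not ask, would leave 3 libraries with 1 each and HS-2 in liver with none. Members and rules were chosen with earlier results of these data known. The calculation was tested on simulated data with known flank factors. Alternatives changed window, scale, decay, pseudocount, window column and the limit for empty positions. Python 3.11.15, numpy 2.4.6 and pandas 2.3.3 were used.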

Additional observations from a re-analysis of the deposited data

Results flagged for a closer look

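The difference between liver and brain over the flank had opposite signs from different viewpoints. The log2 difference of relative signal, liver minus brain, was -1.14 for the Hbb-b1 promoter, -1.65 for HS-2 and 1.02 for 3' HS-1. Scaled to positions outside the globin cluster, which include the flank itself, all 3 were above 0. Each value compares 1 library with 1 library, and the difference between viewpoints was not tested.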

How the results depend on the processing

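The log2 O/E of the flank ranged from -1.47 to -0.02 for HS-62 and from 0.04 to 0.89 for the Hbb-b1 promoter in liver over the alternatives. It stayed above 0 for 3' HS-1 in liver and took both signs for HS-2 in liver and for all 3 brain libraries. Among the 29 alternative differences in relative signal, 3 turned their sign. Scaled to the library median, the difference from the Hbb-b1 promoter was 2.01, with flank means of 2.50 there and 2.09 from HS-62 in liver. The median of HS-2 in liver is empty, so that scale gave no value for it. Scaled to positions outside the globin cluster the difference was 0.82 for the Hbb-b1 promoter, 0.064 for HS-2 and 1.29 for 3' HS-1, and the liver means were 1.12 and 0.989 for the first 2. The positions outside the cluster include the flank itself. The cause of these turns was not tested. From the Hbb-b1 promoter the difference was smaller, at -0.94 with the 2 kb window, -0.84 with a pseudocount of 20%, -0.82 with the signal as deposited and -0.79 with the higher window column. From HS-2 it was -0.88 with that column, and from 3' HS-1 1.13 with a pseudocount of 5%. With the 2 kb window and its own SD of 1.58, positions lower in liver were 33 of the Hbb-b1 promoter's and 50 of the HS-2 profile's, those higher in liver 6 from HS-2 and 27 from 3' HS-1. Positions higher in liver from the first 2 viewpoints were 0 with the 10 and 20 kb windows, and 5 from the Hbb-b1 promoter with a pseudocount of 20%. With the 20 kb window the Hbb-b1 promoter in liver exceeded its other side by a log2 difference of 1.19. Empty shares with the 2 kb window were 55.2% and 44.8% from the Hbb-b1 promoter in liver and brain, 44.8% from HS-2 in brain, 32.1% and 44.8% from 3' HS-1 in liver and brain, and 20.2% from HS-62. With the 10 and 20 kb windows they were 0% in all of these except the Hbb-b1 promoter in liver, and HS-2 in liver fell to 60.6% at 20 kb. Leaving out the positions empty in all 7 libraries was chosen after seeing the data. No paired analysis was possible because each group has 1 library. Unknown read numbers limit every low value.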
